A study of Citrus unshiu with 6 samples.

Results

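Rough fruit peel of Satsuma mandarin, from trees with induced roughing disorder (RD), was compared at 80 and 30 days after full bloom (DAFB), across every gene with an FPKM of at least 1 in the higher of the RD80 and RD30 libraries. FPKM is a read level scaled for both sequencing depth and transcript length, so levels of different genes can be set side by side. By this rule 17794 of the 23099 genes in the table were members. The lowest members had an FPKM of 1 in the higher library, the highest genes left out had 0.99, with 93 members less than 5% above 1 and 79 genes at most 5% below it.

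RD80 and RD30 were peel of “Yamashitabeni wase” trees on which the disorder was induced by defruiting at fruit set, when a few upward fruits were kept per tree. CK80 and CK30, peel of trees that were grown normally, are given beside them only to show where the early step of RD peel differed. Each library was 1 pool of 3 peel samples, so no spread between replicates is known, no test was possible, and all differences below are differences between single pools. Tree, fruit load and fruit position went with the peel type and cannot be told apart from the disorder. In whole peel, fewer cells of a kind and less RNA per cell cannot be told apart either.

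The study took 30 DAFB as the stage of cell division and 80 DAFB as that of cell enlargement. Young citrus peel is a green, photosynthetic tissue, whose outer layer (flavedo) carries the cuticle and the oil glands and whose inner layer (albedo) is a loose white parenchyma. As such a tissue stops dividing and enlarges, cyclins and growth-regulating factors commonly decline, while expansins and aquaporins, which loosen walls and admit water, and the enzymes that lay down cuticle are in demand.

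At the 2-fold limit, 1273 genes were higher in RD80 than in RD30 (7.15%), 1680 were lower (9.44%), and 14841 differed less than 2-fold. The smallest log2 ratio called higher was 1, and the largest left out was 0.999. Below, “rose” and “fell” are used only of genes past this limit. Counts of list members in this comparison are to be read beside the 7.15% and 9.44% of all members. At 4-fold, 421 genes were higher and 574 lower. The 2 libraries were alike in level, with a median log2 RD80/RD30 of -0.01 over the 16362 genes that reached 1 in each, and with 20711 genes above 0 in RD80 and 20997 in RD30. Of all genes past 2-fold, 43.1% were higher. Scaled to the ACTIN gene Cs7g28810, the reference of the study's PCR, this share was 55.7%, with 1667 genes higher and 1327 lower. That gene had 189 in RD80 and 215 in RD30. Actin 7 (Cs1g05000) went the other way, with 707 in RD80 and 607 in RD30, and no scaling to it was run. The genes that fell held 4.14% of all FPKM in RD80 and 17.0% in RD30, and the genes that rose held 13.0% in RD80 and 3.53% in RD30.

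**Figure D1:**
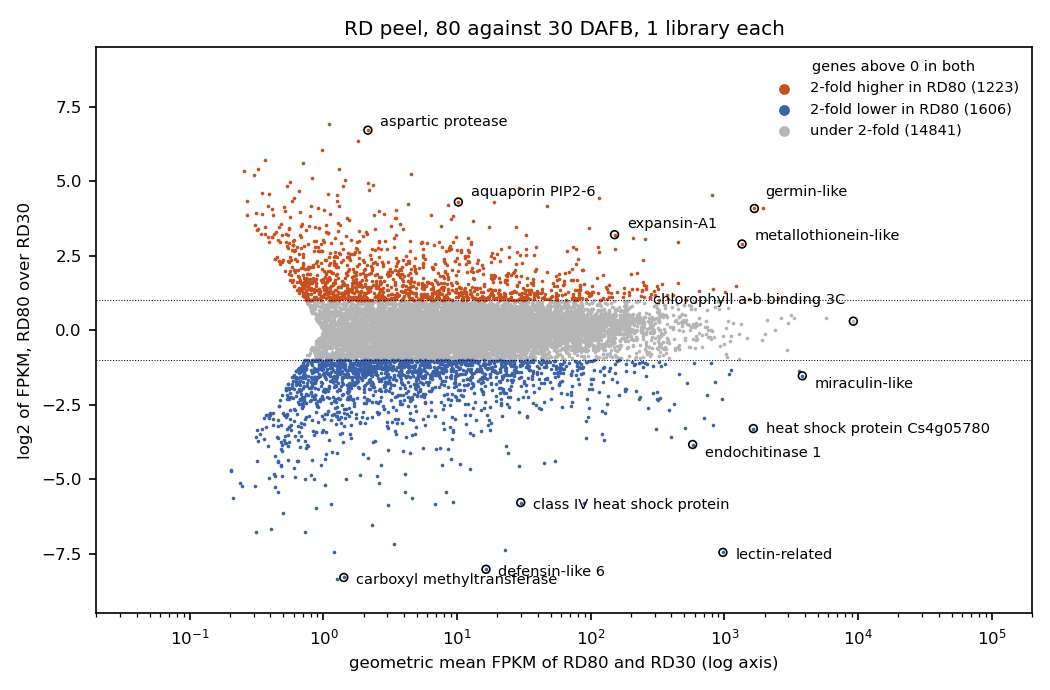
Each point is a gene of RD peel with FPKM above 0 in both libraries, with the geometric mean FPKM of RD80 and RD30 on a log axis across and log2 of RD80 over RD30 upwards. Dotted lines mark 2-fold. The lectin-related protein, the endochitinase and the heat shock protein Cs4g05780 were abundant genes that fell, the germin-like and metallothionein-like genes were abundant genes that rose, and most genes lie between the lines.

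The most abundant transcripts of the 2 stages were partly the same. A chlorophyll a-b binding protein (Cs2g03780), which harvests light, was the most abundant named gene of RD80, with an FPKM of 10228 in RD80 and 8291 in RD30. The small chain of Rubisco (Cs6g18680), the carbon-fixing enzyme, had 3842 in RD80 and 2865 in RD30, and a glycine-rich protein (Cs2g20230) 6673 in RD80 and 4990 in RD30. None of these 3 changed 2-fold.

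The most abundant transcript of RD30 all but left the peel. A lectin-related protein (orange1.1t05126), of a class of sugar-binding proteins, had 73.5 in RD80 and 12894 in RD30, which is a log2 RD80/RD30 of -7.45. Both abundant miraculin-like proteins, relatives of trypsin inhibitors, fell less far: Cs5g16770 had 2248 in RD80 and 6498 in RD30, and Cs5g16780 had 2239 in RD80 and 5748 in RD30. The heat shock protein Cs4g05780, a chaperone, had 524 in RD80 and 5163 in RD30.

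In their place, RD80 held germin-like proteins, which are glycoproteins of the cell wall, and a metallothionein. Germin-like Cs5g25680 had 6891 in RD80 and 407 in RD30, its neighbour by gene number Cs5g25700 had 198 in RD80 and 11.1 in RD30, and the unnamed Cs5g25690, numbered between them, had 7964 in RD80 and 467 in RD30. All were about 4 on the log2 scale higher, at 4.08, 4.16 and 4.09 in that order. RSEM divides reads that fit similar genes between them, so the share of each of these neighbours is uncertain. The metallothionein-like protein Cs1g07330, a cysteine-rich metal-binding protein, had 3688 in RD80 and 497 in RD30. The unnamed Cs8g06620 had 3853 in RD80 and 168 in RD30.

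**Figure D2:**
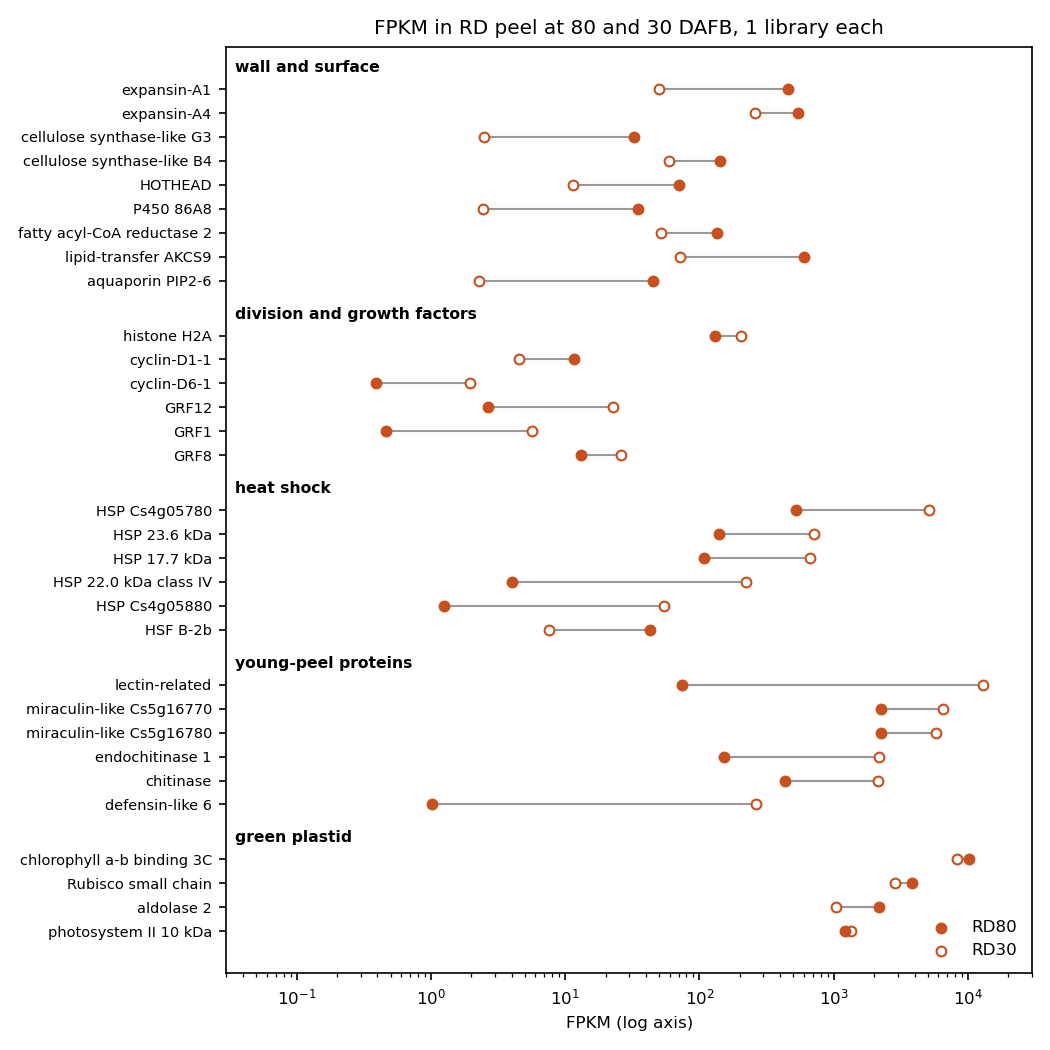
FPKM of 31 members in RD80 (filled) and RD30 (open) on a log axis, 1 library each, joined by a line and grouped by role. The members drawn were picked. All wall and surface genes shown are ones that rose, and members of the same lists that fell, such as expansin-like A1 and P450 77A3, are not drawn. Of the genes shown, the proteins of young peel, the growth-regulating factors and all heat shock genes except the factor HSF B-2b lie lower in RD80. Of the green plastid genes shown, only aldolase 2 passed 2-fold, and it lies higher in RD80.

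Among named genes with an FPKM of at least 10 in the higher library, the largest rise was that of the F-box protein Cs2g02880, of a family that marks proteins for breakdown, with 12.1 in RD80 and 0.10 in RD30 (log2 6.92). ASPARTIC PROTEASE IN GUARD CELL 2 (Cs7g06720) had 22 in RD80 and 0.21 in RD30 (log2 6.71). The homeodomain factor BEL1-like 1 (orange1.1t04599) had 16.4 in RD80 and 0.20 in RD30 (log2 6.36). All 3 transcripts were near 0 in RD30, where few reads set the value, so their folds are imprecise.

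The other large rises were in a fatty acid amide hydrolase (Cs1g08550, 12 in RD80 and 0.39 in RD30), a basic beta-1,3-glucanase (orange1.1t00643, 11.2 in RD80 and 0.43 in RD30), the water channel PIP2-6 (Cs8g08820, 45.3 in RD80 and 2.30 in RD30) and a proline-rich protein (Cs8g09070, 36.3 in RD80 and 1.99 in RD30). The acyltransferase WSD1 (Cs5g20000), which in Arabidopsis joins fatty acids and alcohols into wax esters, had 10.5 in RD80 and 0.65 in RD30.

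Genes of defence and specialised metabolism stood among the largest falls. A salicylate/benzoate carboxyl methyltransferase (Cs3g05620), which makes volatile methyl esters, had 0.08 in RD80 and 25.1 in RD30 (log2 -8.30). Its relative Cs3g05650 was listed at 0 in RD80 and at 15.2 in RD30. A defensin-like protein (Cs1g19393), an antimicrobial peptide, had 1.02 in RD80 and 265 in RD30 (log2 -8.02). Cytochrome P450 94A1 (Cs5g07230) had 0.09 in RD80 and 15.8 in RD30, serine carboxypeptidase-like 18 (Cs8g03880) 0.24 in RD80 and 22.5 in RD30, and tyrosine decarboxylase (Cs7g16560), which makes tyramine, 0.62 in RD80 and 26.7 in RD30.

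Wall proteins and regulators stood among the largest falls as well. The glycine-rich cell wall protein Cs5g34620 had 0.90 in RD80 and 51.3 in RD30, and the similarly annotated Cs5g34610 was listed at 0 in RD80 and at 24.7 in RD30. The zinc finger factor DOF1.2 (Cs3g21070) had 0.40 in RD80 and 23.2 in RD30. In all, 74 members were listed at 0 in RD80 and 50 in RD30, for which no fold is given. A steroid 5-beta-reductase-like enzyme (orange1.1t04841) was at 0 in RD80 and at 21.6 in RD30, the unnamed Cs2g24040 was at 0 in RD80 and at 30.6 in RD30, and the unnamed Cs7g16270 was at 15.4 in RD80 and at 0 in RD30.

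Genes of cell division leaned lower in RD80. Of 114 expressed members of a list of cyclins, histones, kinesins and DNA replication proteins, 2 rose and 27 fell, and the median log2 ratio was -0.41, beside -0.02 over all members above 0 in both libraries. With FPKM of at least 5 in the higher library the list kept 53 genes, of which 1 rose and 6 fell (11.3%, beside 6.46% of all genes at that limit), and on log2(FPKM + 1) 15 fell. Cyclins, which drive the cell cycle, had 1 higher and 10 lower of 21 (median -0.97). Histones had 0 higher and 4 lower of 11, and kinesins, motors of which many act in mitosis, 0 higher and 8 lower of 40. Replication proteins did not follow, with 1 higher and 0 lower of 28 and a median of 0.12.

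The member of that list with the highest FPKM was a histone H2A (Cs6g05830), with 131 in RD80 and 202 in RD30, which is under 2-fold. Cyclin-D6-1 (orange1.1t05507) had the largest fall, with 0.39 in RD80 and 1.94 in RD30, whereas cyclin-D1-1 (Cs7g08180), which acts at entry into the cell cycle, had 11.6 in RD80 and 4.54 in RD30.

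Growth-regulating factors, transcription factors of dividing leaf and fruit tissue, had the lowest median of all lists, -2.90, and 4 of 5 fell. GRF12 (Cs5g09850) had 2.65 in RD80 and 22.8 in RD30, and GRF1 (Cs1g21350) 0.46 in RD80 and 5.68 in RD30. GRF8 (Cs5g01380), the most abundant, had 13.1 in RD80 and 26.0 in RD30, a log2 ratio of -0.99 that just missed the limit. The cytosolic ribosomal proteins, which a growing tissue needs throughout, had 3 higher and 0 lower of 48 (median 0.21).

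Expansins, which loosen the wall, were mostly higher in RD80: 6 of 10 expressed members rose and 1 fell, with a median of 1.04. Expansin-A4 (Cs6g06530), the most abundant, had 539 in RD80 and 261 in RD30. Expansin-A1 (Cs5g10820), which was picked out with its values known, had 457 in RD80 and 49.6 in RD30. Expansin-like B1 (Cs2g26323) had 4.86 in RD80 and 0.10 in RD30.

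Not every expansin took that course. Expansin-A5 (Cs6g21460) had 345 in RD80 and 523 in RD30, and expansin-like A1 (Cs8g01880) fell, with 17.5 in RD80 and 57.4 in RD30. Xyloglucan endotransglucosylases, which cut and rejoin wall glucans, had 0 higher and 2 lower of 4, and the most abundant, Cs2g07590, had 29.3 in RD80 and 68.6 in RD30.

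Wall synthesis and pectin genes went both ways. Of 26 genes of cellulose synthases, COBRA and fasciclin-like proteins, 5 rose and 3 fell. Cellulose synthase-like B4 (Cs2g21100) had 143 in RD80 and 59.5 in RD30, and cellulose synthase-like G3 (Cs5g01970) 32.7 in RD80 and 2.49 in RD30. Of 40 pectin modifying enzymes, 6 rose and 4 fell, and the abundant pectinesterase 3 (Cs1g16550), which removes methyl groups from pectin, had 558 in RD80 and 687 in RD30.

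Of 13 aquaporins, 4 rose and 1 fell (median 0.48). PIP1-2 (Cs5g03460) was the most abundant, with 741 in RD80 and 562 in RD30, and PIP2-6, given above, rose most. Alpha-tubulin Cs8g03680, a subunit of microtubules, had 715 in RD80 and 440 in RD30, and alpha-tubulin Cs3g16600 was the 1 of 9 tubulins and actins that passed 2-fold, with 47.0 in RD80 and 19.9 in RD30.

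Genes of the cuticle were more often higher than lower in RD80, with 8 higher and 4 lower of 20 and a median of 0.74. Fatty acyl-CoA reductase 2 (orange1.1t02246), of a family that makes fatty alcohols, had 134 in RD80 and 52.2 in RD30. HOTHEAD (Cs7g03720), named after an Arabidopsis gene of cuticle formation, had 69.9 in RD80 and 11.4 in RD30, and cytochrome P450 86A8 (Cs5g03440), of a family that hydroxylates cutin monomers, had 34.8 in RD80 and 2.46 in RD30. Of the members that fell, P450 77A3 (Cs2g07770) fell most, with 0.03 in RD80 and 1.47 in RD30.

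Lipid-transfer proteins, some of which carry lipids towards the surface, had 4 higher and 0 lower of 10. The AKCS9-like protein Cs6g18330 had 602 in RD80 and 71.1 in RD30, and the DIR1-like protein orange1.1t01576 had 93.9 in RD80 and 135 in RD30. Of 30 GDSL esterases, a large family of lipid hydrolases, 5 rose and 8 fell, and their most abundant member, Cs2g28140, stood at 245 in RD80 and 232 in RD30.

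**Figure D3:**
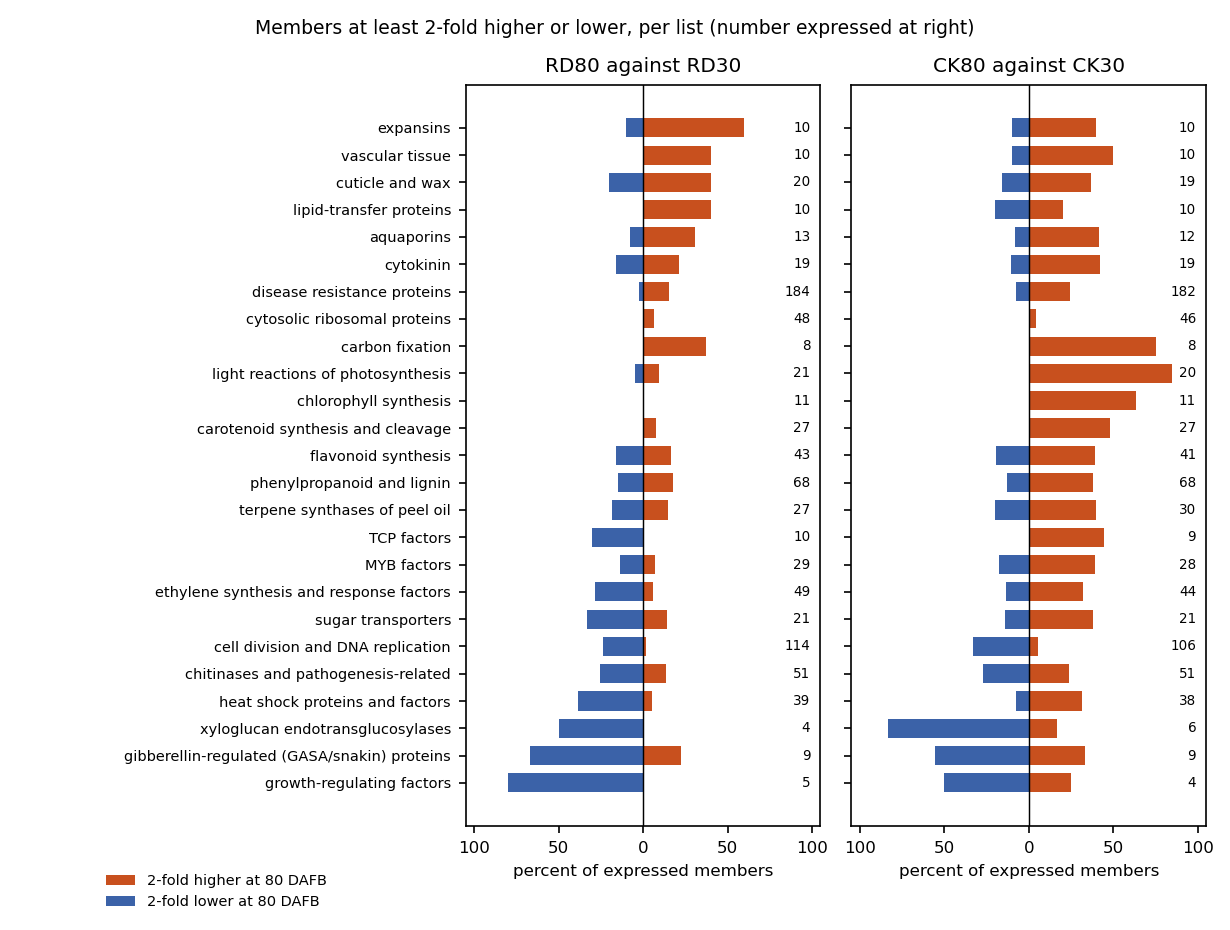
Percent of the expressed members of 25 lists that were at least 2-fold higher (to the right) or lower (to the left) at 80 than at 30 DAFB, in RD peel on the left and in CK peel on the right, with the number expressed at the edge. Growth-regulating factors, gibberellin-regulated and heat shock proteins had the longest bars to the left in RD peel among lists of 5 or more, expansins the longest to the right, and the photosynthetic lists had longer bars to the right in CK peel than in RD peel.

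Transcripts of the green plastid were abundant at both stages. Of 21 expressed genes of the light reactions, 2 rose and 1 fell, with a median of 0.18 and a summed FPKM of 16437 in RD80 and 13908 in RD30. The photosystem II 10 kDa polypeptide (Cs5g15450) had 1221 in RD80 and 1335 in RD30. None of 11 genes of chlorophyll synthesis passed 2-fold in either direction (median 0.02), and protochlorophyllide reductase (Cs1g06850), its light-dependent step, had 326 in RD80 and 347 in RD30.

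Of 8 carbon fixation genes, 3 rose (37.5%, beside 7.15% of all members) and 0 fell, with a median of 0.46. Aldolase 2 (Cs8g08710), an enzyme of the Calvin cycle, had 2190 in RD80 and 1048 in RD30, and glyceraldehyde-3-phosphate dehydrogenase A (Cs2g14940) had 617 in RD80 and 271 in RD30. Chlorophyllase-1 (Cs5g16830), which removes the tail of chlorophyll, fell, with 53.4 in RD80 and 115 in RD30.

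Of 27 genes of carotenoid synthesis and cleavage, 2 rose and 0 fell. Zeaxanthin epoxidase (Cs4g20590), the most abundant, had 510 in RD80 and 459 in RD30, and carotenoid cleavage dioxygenase 4 (Cs7g14820), which breaks carotenoids into smaller pigments and scents, had 26.5 in RD80 and 6.31 in RD30.

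Of the starch genes, 1 was higher (9.09%) and 0 lower of 11 for synthesis, and 1 higher (5.26%) and 0 lower of 19 for breakdown. Over all members 7.15% were higher and 9.44% lower, and counts in lists this small cannot be told from those shares. Beta-amylase 1 (orange1.1t03470), which frees maltose, had 431 in RD80 and 321 in RD30. Enzymes that split sucrose differed: acid beta-fructofuranosidase (Cs5g09220), an acid invertase, had 558 in RD80 and 109 in RD30, whereas the insoluble, wall-bound invertase CWINV (Cs1g18220) had 3.73 in RD80 and 16.9 in RD30. Sucrose synthase (Cs4g06850) had 387 in RD80 and 540 in RD30. In the whole list of sucrose and hexose metabolism, 3 rose and 2 fell of 26.

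Sugar transporters passed 2-fold both ways, with 3 higher (14.3%, beside 7.15% of all members) and 7 lower (33.3%, beside 9.44%) of 21. Their median was -0.66, with 10 members above 0 and 11 below. The phloem loader SUC2 (Cs3g22560) had 84.0 in RD80 and 138 in RD30. SWEET transporters, which let sugars pass in both directions, were split: SWEET1 (Cs3g20720) had 125 in RD80 and 59.2 in RD30, SWEET7 (Cs5g01880) 13.0 in RD80 and 2.38 in RD30, and SWEET17 (orange1.1t04897) 1.08 in RD80 and 5.74 in RD30. Of 8 trehalose genes, 0 rose and 2 fell.

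Genes of specialised metabolism passed 2-fold in both directions more often than all members did (7.15% higher and 9.44% lower). Of 68 phenylpropanoid and lignin genes, 12 rose (17.6%) and 10 fell (14.7%). Caffeic acid 3-O-methyltransferase (orange1.1t04194), of lignin synthesis, had 1361 in RD80 and 1617 in RD30. Of 43 flavonoid genes, 7 rose and 7 fell (16.3% each). Chalcone synthase (Cs2g14720), the entry to flavonoids, had 924 in RD80 and 1806 in RD30, with a log2 ratio of -0.97.

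Of 27 terpene synthases, which make the scent compounds of the oil, 4 rose and 5 fell. The limonene synthase Cs3g04360, which makes the main terpene of citrus oil, had 619 in RD80 and 537 in RD30, and gamma-terpinene synthase (Cs3g07850) 283 in RD80 and 434 in RD30. A nerolidol synthase (Cs2g07250) fell most, with 0.35 in RD80 and 10.1 in RD30. Limonene synthases alone had 3 higher and 0 lower of 6, and the abundant Cs3g04360 was not among the 3. Of the 18 terpene synthases with FPKM of at least 5, 1 rose (5.56%, beside 4.98% of all genes at that limit) and 4 fell. Most of the limonene synthases that rose were thus of low FPKM.

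Gibberellin genes are of interest here because the study screened 15 genes of gibberellin response. Gibberellin binds the receptor GID1, which then, with the F-box protein GID2, leads to the breakdown of the DELLA repressors. Of those 15 genes, all were members, 0 rose, 3 fell and the other 12 were lower in RD80 by less than 2-fold. By the study's names, GID1e1 (Cs5g34000) had 1.83 in RD80 and 4.73 in RD30, and GID1 (Cs8g05590) had 3.20 in RD80 and 6.47 in RD30. The factor bHLH122.1 (Cs7g02010) had 15.2 in RD80 and 33.6 in RD30. The study chose these genes on the same libraries, at 30 DAFB, so they are no independent sample. The deposited descriptions call GID1e1 2-hydroxyisoflavanone dehydratase-like, GID1b1, GID1b2, GID1e2 and GID1c probable carboxylesterases, and DELLA7 scarecrow-like. Those of GID1, GID2 and DELLA8 are hypothetical proteins. Their roles as receptors or DELLA proteins thus rest on the study's naming.

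The other genes that the study named as receptors were lower in RD80 by less than 2-fold. GID1b1 (Cs8g05610) had 10.2 in RD80 and 15 in RD30, and GID1b2 (Cs7g05330) 4.61 in RD80 and 5.59 in RD30. GID1e2 (Cs5g34010) had 16.3 in RD80 and 21.7 in RD30, and GID1c (Cs5g19100) 11.1 in RD80 and 18.5 in RD30. GID2 (Cs3g23040) was level, with 60.1 in RD80 and 61.0 in RD30. DELLA7 (Cs2g01990) had 116 in RD80 and 151 in RD30, and DELLA8 (Cs4g12130) 59.8 in RD80 and 88.1 in RD30. The 6 bHLH factors among the 15 ran between 1.80 and 17.0 in RD80 and between 3.37 and 33.6 in RD30. By their descriptions, unlike those of DELLA7 and DELLA8, 2 genes outside the 15 were DELLA proteins. Of these, GAI (Cs6g17530) had 61.1 in RD80 and 51.3 in RD30.

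Of 8 genes of gibberellin synthesis and inactivation, 1 rose and 2 fell. Gibberellin 2-beta-dioxygenase 8 (Cs2g07550), of the family that inactivates gibberellin, was level, with 27.6 in both libraries. Ent-copalyl diphosphate synthase (Cs5g15530), the first committed step of synthesis, had 2.34 in RD80 and 7.81 in RD30. Of 9 gibberellin-regulated or snakin proteins, small cysteine-rich peptides, 2 rose and 6 fell (median -1.36). Protein 14 of this family (Cs6g20220) had 177 in RD80 and 386 in RD30, and snakin-1 (Cs8g04550) 5.74 in RD80 and 99.3 in RD30, while protein 1 (Cs3g26100) had 102 in RD80 and 14.6 in RD30.

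Auxin genes had 1 higher (2.17%, beside 7.15% of all members) and 5 lower (10.9%, beside 9.44%) of 46, so the share that fell was near that of all members. The repressor IAA9 (Cs3g16750) had 223 in RD80 and 273 in RD30. Of 19 cytokinin genes, 4 rose and 3 fell: cytokinin dehydrogenase 5 (Cs3g25370), which destroys cytokinin, had 40.8 in RD80 and 12.8 in RD30, and the response regulators ARR9 (orange1.1t01850) and ARR15 (Cs5g04810), both raised by cytokinin in Arabidopsis, fell. ARR9 had 10.7 in RD80 and 29.3 in RD30, and ARR15 had 2.07 in RD80 and 10.2 in RD30.

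Ethylene genes leaned lower, with 3 higher (6.12%, beside 7.15% of all members) and 14 lower (28.6%, beside 9.44%) of 49. Of the 36 with FPKM of at least 5, 2 were higher and 4 lower (11.1%, beside 6.46% of all genes at that limit). The ethylene-responsive transcription factors had 2 higher and 11 lower of 33 and a median of -0.49. ERF4 (Cs2g23660), a repressor, had 155 in RD80 and 300.0 in RD30, and ERF062 (orange1.1t02436) 0.18 in RD80 and 2.33 in RD30. The abundant RAP2-12 (Cs1g16690), a factor of the response to low oxygen, was level at 333 in RD80 and 331 in RD30. Of 20 jasmonate genes 3 rose and 3 fell, and of 8 abscisic acid genes 0 rose and 2 fell.

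Among the regulators, TCP factors, which control cell proliferation, had 0 higher and 3 lower of 10. TCP4 (Cs2g15820) had 52.5 in RD80 and 69.8 in RD30, and TCP8 (orange1.1t03896) had 14 in RD80 and 28.5 in RD30. MYB factors had 2 higher (6.9%, beside 7.15% of all members) and 4 lower (13.8%, beside 9.44%) of 29 (4 higher and 2 lower when scaled to ACTIN). The bHLH factors had 4 (13.3%) and 7 (23.3%) of 30, WRKY factors 6 (25%) and 2 (8.33%) of 24, and NAC factors 4 (13.8%) and 2 (6.9%) of 29. Of the 19 WRKY factors with FPKM of at least 5, 3 were higher (15.8%, beside 4.98% of all genes at that limit) and 1 lower. On log2(FPKM + 1), 2 WRKY factors were higher. Homeobox and MADS-box factors had 5 (11.1%) and 7 (15.6%) of 45 (6 and 5 when scaled to ACTIN). A MADS-box gene described as FLOWERING LOCUS C (Cs5g10810) had 260 in RD80 and 231 in RD30. NAC100 (Cs6g21520) had 5.81 in RD80 and 0.58 in RD30, and WRKY40 (Cs7g06330), of stress response, 0.11 in RD80 and 3.37 in RD30.

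The clock list had 3 higher and 2 lower of 16. LHY (orange1.1t00580), which peaks near dawn in Arabidopsis, had 384 in RD80 and 103 in RD30, and APRR5 (Cs5g16360), which follows later in the day, had 0.70 in RD80 and 4.04 in RD30. The part of the hour of sampling in these and other values was not tested.

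Of 39 heat shock proteins and factors, 2 rose and 15 fell, with a median of -0.58. The summed FPKM of the list was 2281 in RD80 and 9723 in RD30. Small heat shock proteins, which hold unfolding proteins, had 0 higher and 7 lower of 11, with a median of -1.62. The class IV protein Cs5g18500 had 4.03 in RD80 and 222 in RD30, the class I protein Cs6g07320 had 109 in RD80 and 661 in RD30, the mitochondrial protein Cs9g14690 had 140 in RD80 and 715 in RD30, and Cs4g05880 had 1.25 in RD80 and 54.0 in RD30.

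The 70 kDa heat shock proteins had 0 higher and 2 lower of 6, and the heat stress factors 1 higher and 2 lower of 7 (median 0.04). The heat stress factor B-2b (Cs5g10490) had 42.7 in RD80 and 7.55 in RD30. Heat shock genes answer to warmth and handling within minutes to hours in plants, and their part in the other differences between RD80 and RD30 was not tested.

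Chitinases, glucanases, thaumatins and miraculins had 7 higher and 13 lower of 51, and their summed FPKM was 6004 in RD80 and 17876 in RD30. Chitinases, which attack fungal walls, had 1 higher and 4 lower of 8. The endochitinase orange1.1t05124 had 153 in RD80 and 2184 in RD30, and the chitinase Cs8g01840 had 435 in RD80 and 2142 in RD30. Pathogenesis-related protein 5 (Cs3g24410) had 0.14 in RD80 and 2.95 in RD30.

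Disease resistance proteins, receptors of the immune system, went the other way. Of 184 expressed, 28 rose (15.2%, beside 7.15% of all members) and 4 fell (2.17%, beside 9.44%), with a median of 0.21. Most of these were genes of low FPKM: of the 77 with at least 5 in the higher library, 5 rose (6.49%, beside 4.98% of all genes at that limit) and 1 fell, and on log2(FPKM + 1) 8 rose and 1 fell. RGA3 (Cs7g16030), the most abundant, had 149 in RD80 and 82.5 in RD30, and the member named after At4g11170 (orange1.1t01815) 4.44 in RD80 and 0.37 in RD30. Of 16 class III peroxidases, which cross-link wall polymers, 2 rose and 4 fell, and peroxidase 3 (Cs5g32270) had 141 in RD80 and 293 in RD30.

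Of 9 genes on a seed list 3 were members, and the list summed to 17.6 in RD80 and 17.5 in RD30. The 1 vicilin, legumin or 11S globulin gene of the table was at 0.09 in RD80 and 0.03 in RD30. Oleosin 1 (orange1.1t03751) had 13.6 in RD80 and 10.8 in RD30. Outside this list, the 21 kDa seed protein-like gene Cs5g16920 had 380 in RD80 and 152 in RD30. Late embryogenesis abundant proteins, which vegetative tissue makes too, reached 772 in RD80 and 257 in RD30. Of 10 genes named after xylem or phloem, 4 rose and 0 fell, with a summed FPKM of 99.4 in RD80 and 83.9 in RD30. Xylem cysteine proteinase 2 (Cs3g27650) had 16.9 in RD80 and 8.39 in RD30, while xylem cysteine proteinase 1 (Cs8g01170), more abundant, had 49.0 in RD80 and 53.6 in RD30.

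More genes passed 2-fold over the same step of CK peel. Between CK80 and CK30, 4064 of 17387 genes were 2-fold higher (23.4%) and 1576 lower (9.06%), or 32.4% either way, beside 7.15% and 9.44% in RD peel. The CK step had a median log2 ratio of 0.31, and taken relative to it 2838 genes were higher and 2278 lower. Over 17703 genes above 0 in all 4 libraries, the 2 steps, which share no library, had a Pearson r of 0.54 and a Spearman rho of 0.45 across genes, which are not independent replicates. Of the genes that rose in RD peel and were expressed in the CK step, 75.6% rose in CK peel too, which was 21.6% of the genes that rose there. Of the genes that fell in RD peel, 49.7% fell in CK peel, which was 47.4% of those that fell there, and 11.4% rose.

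**Figure D4:**
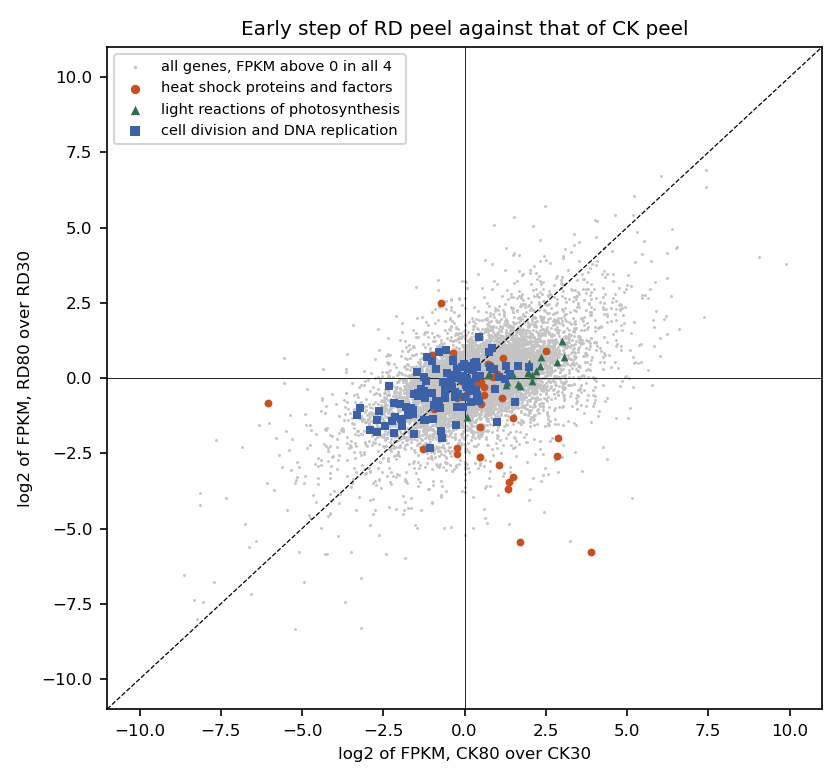
Each point is a gene, with log2 of CK80 over CK30 across and log2 of RD80 over RD30 upwards, and the dashed line marks equal steps. Genes of the light reactions lie near 0 upwards and at about 2 across, cell division genes lie below 0 on both axes for the most part, and several heat shock genes lie at the lower right, with fewer transcripts in RD80 than in RD30 and more in CK80 than in CK30.

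The lists of photosynthesis differed between the steps. Of the light reaction genes, 2 of 21 rose in the RD step and 17 of 20 in the CK step, with medians of 0.18 in the RD step and 1.95 in the CK step. Their summed FPKM was 16437 in RD80 and 13908 in RD30, against 18119 in CK80 and 6330 in CK30, so the 2 peels were closer at 80 than at 30 DAFB. Carbon fixation genes had medians of 0.46 in the RD step and 2.54 in the CK step, and chlorophyll synthesis genes 0.02 in the RD step and 1.21 in the CK step. With the CK step taken relative to its median, 16 of the light reaction genes, 6 of the carbon fixation genes and 4 of the chlorophyll synthesis genes still passed 2-fold there.

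Of the cell division genes, 27 of 114 were lower in the RD step and 35 of 106 in the CK step, or 25 and 47 relative to the median of each step, and medians of -0.41 in the RD step and -0.42 in the CK step. GRF12 (Cs5g09850) had 2.65 in RD80 and 22.8 in RD30, against 2.50 in CK80 and 18.6 in CK30. Expansins had 6 higher of 10 in the RD step and 4 higher of 10 in the CK step. These counts describe single pools, and differences between the steps were not tested.

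A gap of at least 4-fold between the steps, with FPKM of at least 1 in the highest of the 4 libraries, was found in 279 genes with the RD step above the CK step (1.58%) and in 1084 genes with it below (6.12%). Relative to the median of each step the counts were 416 and 734. The median gap was -0.36 on the log2 scale.

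The widest gaps below were led by heat shock proteins. The class IV protein Cs5g18500 had 4.03 in RD80 and 222 in RD30, against 20.2 in CK80 and 1.36 in CK30, and Cs4g05880 had 1.25 in RD80 and 54.0 in RD30, against 5.56 in CK80 and 1.71 in CK30. Of the heat shock list, 13 members stood 4-fold lower in the RD step and 2 higher. Among those higher was the heat stress factor B-2b (Cs5g10490), with 42.7 in RD80 and 7.55 in RD30, against 20.7 in CK80 and 34.2 in CK30. The heat shock list as a whole had 2281 in RD80 and 9723 in RD30, against 3618 in CK80 and 2746 in CK30, and RD30 had the highest sum of the 6 libraries.

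Other genes with wide gaps rose in CK peel and rose less or not at all in RD peel. A FLOWERING LOCUS T gene (Cs6g05140), of the family of mobile flowering signals, had 13.0 in RD80 and 0.95 in RD30, against 57.1 in CK80 and 0.06 in CK30. Both of the next genes were picked by the width of the gap: purple acid phosphatase 8 (Cs2g17970), under 1 in both RD libraries and so no member, had 0.85 in RD80 and 0.91 in RD30, against 12.2 in CK80 and 0.19 in CK30, and the SPX-domain protein SPX2 (Cs4g17870) had 18.7 in RD80 and 15.4 in RD30, against 142 in CK80 and 2.86 in CK30. Gibberellin 2-beta-dioxygenase 8 (Cs2g07550), level in RD peel, had 14.3 in CK80 and 0.43 in CK30. The response regulator ARR9 had 10.7 in RD80 and 29.3 in RD30, against 15.3 in CK80 and 1.04 in CK30.

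Among the named genes with the RD step above the CK step, the widest gap was also that of a heat shock gene. The heat shock cognate 70 kDa-like gene Cs7g29040 had 1.30 in RD80 and 2.32 in RD30, against 0.93 in CK80 and 60.9 in CK30. The chitinase Cs8g01840 had 435 in RD80 and 2142 in RD30, against 43.3 in CK80 and 5036 in CK30. The endochitinase orange1.1t05124 had 153 in RD80 and 2184 in RD30, against 24.5 in CK80 and 6891 in CK30. The galactose oxidase-like gene Cs3g25730 had 2.51 in RD80 and 7.32 in RD30, against 1.80 in CK80 and 145 in CK30. The 21 kDa seed protein-like gene Cs5g16920 had 380 in RD80 and 152 in RD30, against 22.8 in CK80 and 117 in CK30.

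The screened gibberellin genes were chosen by the study on RD30 and CK30, and each step contains 1 of these libraries, so their values are given as a description only. In the CK step GID1e1 (Cs5g34000) had 1.09 in CK80 and 0.27 in CK30, and GID1b1 (Cs8g05610) 5.41 in CK80 and 1.36 in CK30. DELLA7 (Cs2g01990) was lower at 80 DAFB in both peels, with 116 in RD80 and 151 in RD30, against 226 in CK80 and 502 in CK30.

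After 80 DAFB, the genes that had risen took different courses in RD peel, seen from values that share the RD80 library. Expansin-A1 (Cs5g10820) had 49.6, 457 and 1660 at 30, 80 and 170 DAFB, and the metallothionein Cs1g07330 497, 3688 and 20873, so both were highest in ripe peel. FLOWERING LOCUS T (Cs6g05140) had 0.95, 13.0 and 158 at these stages. BEL1-like 1 (orange1.1t04599) had 0.20, 16.4 and 79.3. Germin-like Cs5g25680 had 407, 6891 and 3192, and acid beta-fructofuranosidase (Cs5g09220) had 109, 558 and 359, with the highest value at 80 DAFB.

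The genes that had fallen took different courses as well. The lectin-related protein orange1.1t05126 had 12894, 73.5 and 0 at 30, 80 and 170 DAFB, the defensin-like protein Cs1g19393 had 265, 1.02 and 0, and GRF12 (Cs5g09850) had 22.8, 2.65 and 0.47. Of the heat shock proteins, Cs4g05780 had 5163, 524 and 2216, the class IV protein Cs5g18500 had 222, 4.03 and 66.0, and Cs4g05880 had 54.0, 1.25 and 1.2. Snakin-1 (Cs8g04550) had 99.3, 5.74 and 92.6. The chlorophyll a-b binding protein Cs2g03780 had 8291, 10228 and 1039, and was lowest in ripe peel.

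**Figure D5:**
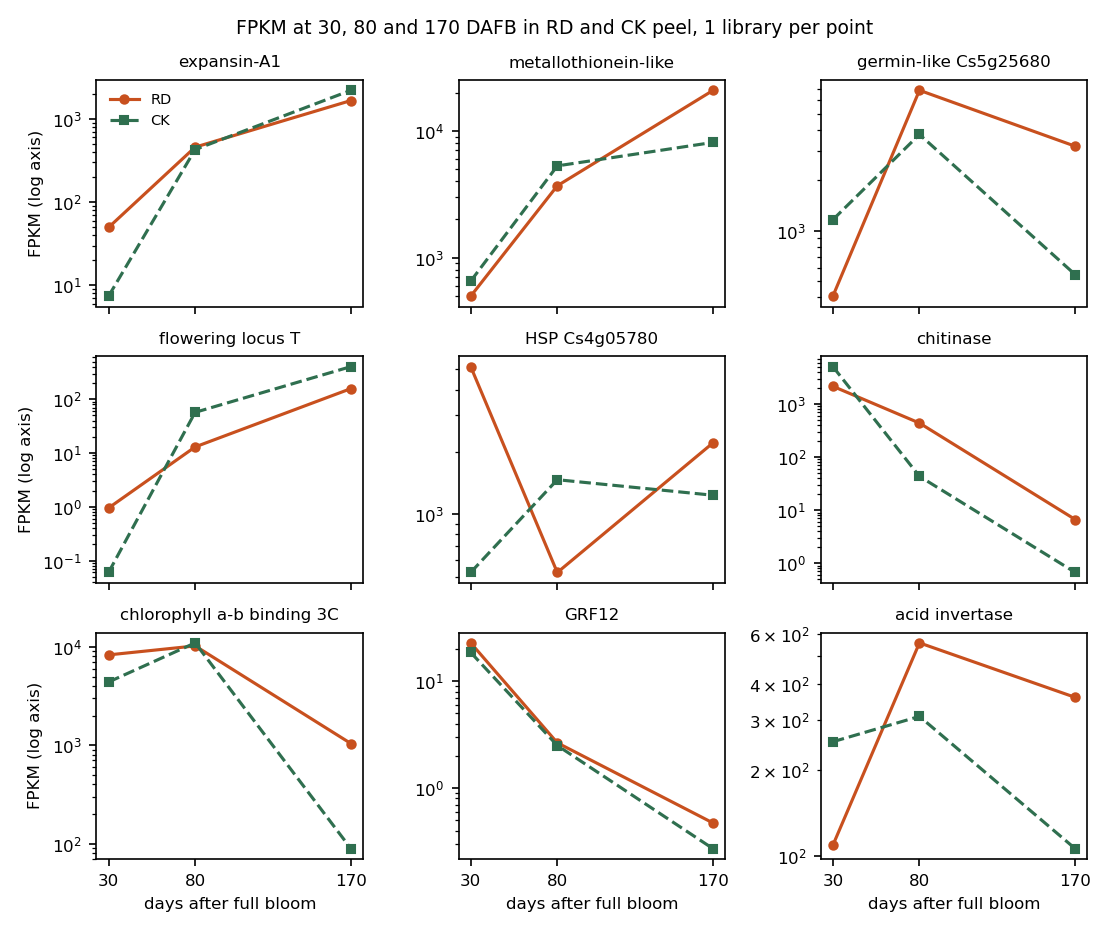
FPKM of 9 genes at 30, 80 and 170 DAFB on log axes of their own, in RD peel (solid) and CK peel (dashed), with 1 library per point and lines drawn only to join the stages. In the panel of the heat shock protein Cs4g05780, RD peel is high at 30 DAFB and low at 80 DAFB while CK peel is low at 30 DAFB, and in that of the chitinase both peels decline, with RD peel the higher from 80 DAFB on.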

How the data were processed

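Total RNA of pooled peel was enriched for mRNA and sequenced on an Illumina instrument, 1 pool per group and stage. The authors cleaned the reads, mapped them to the sweet orange genome and deposited 1 table of FPKM values per gene. The submitters' processing notes name Bowtie, BWA and RSEM. Their versions and the reads per gene are not given in the sources used here, so no counting interval is given for an FPKM. The study states the mapped reads of each library, which were alike for RD80 and RD30. Among 1620 genes of low FPKM in both RD80 and RD30, 175 had a ratio from 1 to under 5% above it and 17 one up to 5% below it, so a read was worth nearly the same FPKM in both libraries.

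RD80 and RD30 were compared as deposited, with no added pseudocount, as log2 of their ratio, in Python 3.11.15 with pandas 2.3.3 and numpy 2.4.6. A gene was called at 2-fold with FPKM of at least 1 in the higher library. The rule was run on simulated libraries with known folds, only as a check of the code. Their spread was set in advance, so the run does not show how reliable the calls between these pools are. With 1 library per group no test was run. Near-identical neighbours share reads, which RSEM splits by estimate.

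Genes were grouped into 46 functional lists and 9 families by their descriptions, and 8011 of the 17794 members had a name. Members and lists were chosen with earlier results of these data known, and genes whose description did not match a list were removed after values were seen. The 218 named genes were the largest rises and falls, the most abundant genes, the most abundant and most changed of each functional list, the 15 screened gibberellin genes, the widest gaps between the steps, and the most abundant genes listed at 0 in RD80 or RD30. Alternatives were other scalings, filters, pseudocounts and fold limits. RD170 and CK170 are given only as values.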

Additional observations from a re-analysis of the deposited data

Results flagged for a closer look

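The following genes, among the named ones, moved in opposite directions in the early step of RD peel and that of CK peel. With 1 library per group the differences were not tested. Each value is log2 of RD80 over RD30 minus log2 of CK80 over CK30.

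Heat shock genes were the widest. The value was -9.68 for the class IV protein Cs5g18500, -7.13 for Cs4g05880, -5.45 for the class I protein Cs6g07320 and -4.79 for Cs4g05780, and each was lower in RD80 than in RD30 and higher in CK80 than in CK30. The median of the whole heat shock list was -0.58 in the RD step and 0.55 in the CK step.

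Cytokinin response and clock regulators took the same direction, with -5.34 for ARR9 (orange1.1t01850), -3.84 for ARR15 (Cs5g04810) and -4.70 for APRR5 (Cs5g16360). So did the wall-bound invertase Cs1g18220, at -3.85. Of the screened gibberellin genes, which the study chose on RD30 and CK30, GID1e1 (Cs5g34000) had -3.38, GID1 (Cs8g05590) -2.29 and bHLH122.1 (Cs7g02010) -2.18.

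Among the named genes, 2 were higher in RD80 than in RD30 and lower in CK80 than in CK30. Over all genes expressed in both steps, 24 had these directions and 156 the opposite ones. The ankyrin repeat protein Cs9g15570 had 4.29, with an FPKM of 1.36 in RD80 and 0.44 in RD30, against 1.64 in CK80 and 10.4 in CK30. The 21 kDa seed protein-like gene Cs5g16920 had 3.68.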

How the results depend on the processing

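A gene called at 2-fold could not change sign under any alternative, so its sign is no check of the result. The largest shift of the RD step was 0.19 on the log2 scale, and filters, pseudocounts and fold limits keep the sign. Scaled to the ACTIN gene Cs7g28810, the larger side turned round, with 1667 genes higher and 1327 lower. This rests on a single gene, and Actin 7 (Cs1g05000) differed in the other direction. With FPKM of at least 5 in the higher library, 688 genes were higher and 893 lower in RD80 than in RD30, and the gap between the steps was 4-fold up in 156 genes and down in 617. On log2(FPKM + 1) these counts were 840, 1095, 114 and 382. A 4-fold limit left 421 higher and 574 lower, and a 1.5-fold limit gave 2485 and 3112. The share of changed genes that were higher, 43.1% as deposited, was 41.1% scaled to the upper quartile and 55.7% scaled to the ACTIN gene, which moved the log2 ratio of every gene of the RD step by the same 0.19 upwards (the shift of the scale was -0.19, and -0.36 in the CK step). Of 644 counts of list members under the alternatives, 558 stayed within 1.5 times the deposited count and 86 did not. The lean of a list turned round for MYB and homeobox and MADS-box factors when scaled to ACTIN, for cytokinin, sucrose and hexose, and cellulose synthase genes on log2(FPKM + 1), for cytokinin genes at FPKM of at least 5, and for peroxidases with no filter. Of 213 named genes, 21 changed their side of the 2-fold limit under at least 1 alternative.

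No paired analysis was possible because each group had 1 library. Pools hide the spread between fruits and trees, so the size of a difference that trees alone would give is unknown. Low FPKM values rest on few reads, and a ratio against a value near 0 is imprecise. The hour and handling of sampling are not given in the sources used here, and their part in the clock and heat shock values was not tested.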

Other observations

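Several gene families were listed after values had been seen. Pentatricopeptide repeat proteins, which process RNA in plastids and mitochondria, had 2 higher (0.766%, beside 7.15% of all members) and 23 lower (8.81%, beside 9.44%) of 261 in the RD step, with a median log2 ratio of -0.31. In the CK step 49 of 240 were higher, where 23.4% of all genes were, and 8 were lower. ABC transporters, some of which export surface lipids, had 12 higher (22.6%) and 4 lower (7.55%) of 53 in the RD step. Germin-like proteins had 4 higher and 0 lower of 5.

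Other families went both ways in the RD step, each way more often than all members did (7.15% higher and 9.44% lower). Of 71 cytochromes P450, 16 rose and 16 fell (22.5% each). Of 142 receptor-like kinases with leucine-rich repeats, 20 rose (14.1%) and 22 fell (15.5%). Most of these kinases that rose were of low FPKM. Of the 72 with at least 5 in the higher library, 1 rose (1.39%, beside 4.98% of all genes at that limit) and 10 fell (13.9%, beside 6.46%). Of 82 proteases 16 rose (19.5%) and 13 fell (15.9%), and of 39 UDP-glycosyltransferases 7 rose (17.9%) and 6 fell (15.4%). The differences between the steps were not tested.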
